A study of Mus musculus with 6 samples.

Results

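Genes of milk fat globule formation and fatty acid binding were described in mammary glands of virgin transgenic mice with excess luteinizing hormone (LH), a pituitary hormone that drives sex steroid synthesis in the gonads. The genes were Xdh, Btn1a1, Plin2, Mfge8, Muc1 and Fabp3. Every probe set whose platform annotation named exactly 1 gene, that gene being on this list, was taken. Each gene had 1 such probe set, which gave 6 of the 12488 probe sets on the array and 6 of the 8251 genes named alone on a probe set. LH transgenic mice, labelled LH-overexpressing, were compared with wild type mice. Both groups were 16 weeks old, were virgin F1 CF-1/FVB animals and gave thoracic glands. There were 3 Affymetrix arrays per group, each with RNA pooled from 3 mice, so 9 mice stood behind each group. Pooling hides differences between single mice, and the sources used here give neither the transgene's promoter nor the estrous stage of the wild type mice. Pools are numbered 1 to 3 within a group, and these numbers are names that pair nothing across groups.

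Milk fat leaves the alveolar cell as a droplet wrapped in the cell's own apical membrane. Triacylglycerol made in the endoplasmic reticulum collects in cytoplasmic droplets coated by perilipin 2, which move to the apical surface. There the transmembrane protein butyrophilin and the cytoplasmic enzyme xanthine oxidoreductase take part in enclosing the droplet, and the released globule carries lactadherin, mucin 1 and other membrane proteins outward. Fatty acid binding proteins carry the insoluble fatty acids through the cytosol. The genes for these proteins are known to be induced in the mouse mammary gland in pregnancy and lactation, and the mice here were virgin.

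The promoters were examined because 4 of the 6 genes were higher in LH transgenic glands in the comparison described below, and promoters are a place where genes that move together can be compared by letter. RefSeq promoter sequences (GRCm38.p6) were matched for 4 of the 6 genes, Fabp3, Mfge8, Muc1 and Plin2, and Btn1a1 and Xdh were not matched. The 100 bases before the annotated start of 3 of them are shown 5′ to 3′ on the gene's own strand, with capitals for a TATAAA box. They are Fabp3 at chr4:130308638-130308737 on the plus strand, Mfge8 at chr7:79149061-79149160 on the minus strand and Muc1 at chr3:89228956-89229055 on the plus strand.
Fabp3: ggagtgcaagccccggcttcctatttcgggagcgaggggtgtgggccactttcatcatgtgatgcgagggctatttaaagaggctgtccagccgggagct
Mfge8: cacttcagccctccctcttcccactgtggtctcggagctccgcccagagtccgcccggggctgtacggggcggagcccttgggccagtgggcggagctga
Muc1: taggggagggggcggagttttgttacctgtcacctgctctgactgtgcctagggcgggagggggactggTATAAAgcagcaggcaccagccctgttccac
The letters searched over the 250 bases before the start, on both strands, were TTCNNNGAA (the pattern bound by STAT5, the transcription factor activated by prolactin), TTGCNNAA (the pattern bound by C/EBP factors), TATAAA, and a DR1 element, which is AGGTCA repeated after a gap of 1 base and is bound by PPAR with its RXR partner. Muc1 held TATAAA at positions -31 to -26 from its start, and none of the other searches matched in the 4 promoters. The Plin2 window lies within other transcripts of the gene, so its sequence is not shown and no conclusion is drawn from its lack of a match. Of 32851 promoters searched over the same length, 7.02% held TTCNNNGAA, 9.56% TTGCNNAA, 12.4% TATAAA and 0.0335% the DR1 element. Over the 100 bases shown, G and C made up 59.0% for Fabp3, 71.0% for Mfge8 and 61.0% for Muc1.

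The signals were deposited as MAS5 intensities on a linear scale, with a mean of 1500.8 or 1500.9 on each array after 2% was trimmed at each end. The label of the tissue matched its markers: the milk proteins summed to 575776 to 724831 in LH transgenic pools and 223552 to 393918 in wild type pools, and the luminal keratin gene Krt8 had 12538.9 to 18181.6 in LH transgenic pools and 11727.3 to 14712.2 in wild type pools. The basal keratin genes Krt5 and Krt14 were below the filter on low signals. LH transgenic pool 3 stood apart from the other pools of its group in skeletal muscle markers. Their mean log2 level, centred for each gene over the 6 pools, was 0.525 there, against -1.425 and -1.041 in LH transgenic pools 1 and 2 and 0.538 to 0.837 in wild type pools. A call is a Benjamini-Hochberg adjusted p under 0.05 from limma, fitted over the 7453 probe sets whose mean signal was at least 336.0. A difference is the LH transgenic mean minus the wild type mean of log2(signal + 79.7), and errors of means are SD over 3 pools.

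All 6 probe sets passed the filter on low signals. Of them, 4 were called higher in LH transgenic glands (Xdh, Plin2, Mfge8 and Fabp3) and 0 lower, although Mfge8 and the uncalled Muc1 turned below 0 when arrays were scaled to bacterial control probes. Over all 7453 probe sets tested, 21.3% were called, 10.5% higher and 10.8% lower. Without LH transgenic pool 3, Muc1 was called as well, which made 5 of the 6. The groups did not overlap in 4 of the 6 genes, where LH transgenic pools lay above wild type pools in 20.6% of all probe sets. The median log2 difference was 1.02 over the 6 genes and 0.02 over all probe sets. The spread of a group here holds differences between pools of different mice as well as technical error. In whole glands, fewer cells of a type and less RNA per cell cannot be told apart.

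**Figure D1:**
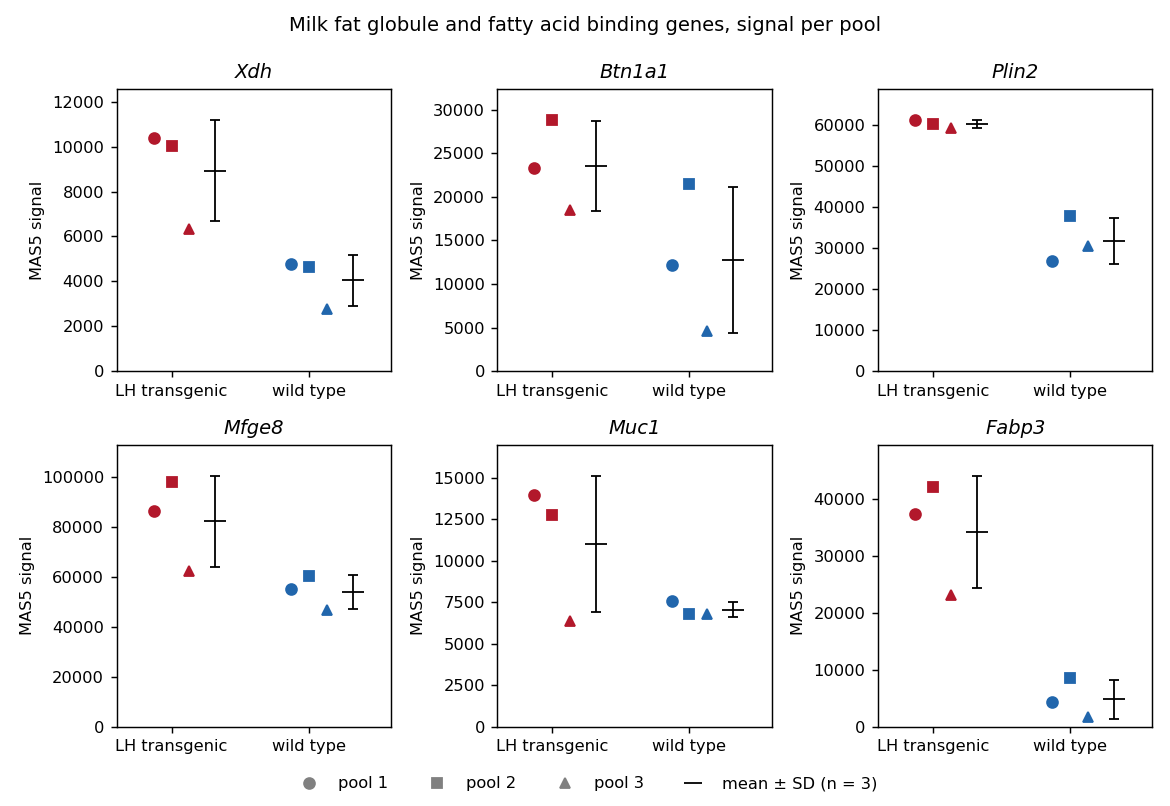
MAS5 signal (linear axis from 0) of each gene in the 3 LH transgenic pools (red) and the 3 wild type pools (blue), with the mean and SD of each group in black and marker shapes for pools 1 to 3. All LH transgenic pools lie above all wild type pools for Xdh, Plin2, Mfge8 and Fabp3, and the groups overlap for Btn1a1 and Muc1; on the bacterial control scale Mfge8 and Muc1 turned below 0.

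Among the genes that enclose the droplet, Plin2 had the most even values. It encodes perilipin 2, also called adipophilin, the protein that coats cytoplasmic lipid droplets in many cell types. Its signal was 61140.4, 60312.7 and 59386.8 in LH transgenic pools, against 26973.4, 37798.0 and 30411.8 in wild type pools. The LH transgenic pools lay within 1.03-fold of each other, the wild type pools within 1.40-fold, and the lowest LH transgenic pool was 1.57 times the highest wild type pool. The means were 60280 ± 877.3 in LH transgenic glands and 31728 ± 5531 in wild type glands (SD, n = 3 each). Plin2 rose by 0.94 on the log2 scale (SE 0.13, 95% interval 0.64 to 1.24, limma adjusted p = 0.00162). Leaving out any 1 pool kept the call, with differences of 0.83 to 1.07.

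Xdh encodes xanthine oxidoreductase, a molybdenum enzyme of purine breakdown that binds the tail of butyrophilin under the apical membrane. In mice its loss of a single copy is known to impair the enclosure of milk fat. Its signal was 10409.3, 10022.0 and 6331.3 in LH transgenic pools, against 4770.3, 4647.1 and 2749.1 in wild type pools. The groups did not overlap. The means were 8921 ± 2251 in LH transgenic glands and 4056 ± 1133 in wild type glands (SD, n = 3 each). Xdh rose by 1.13 on the log2 scale (SE 0.25, 95% interval 0.58 to 1.68, limma adjusted p = 0.0114). The call held without each pool in turn, with differences of 0.88 to 1.36 and adjusted p values of 0.00479 to 0.049.

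Btn1a1 encodes butyrophilin, a transmembrane protein of the immunoglobulin superfamily and a main protein of the globule membrane, and mice without it release milk fat in large, irregular droplets. Its signal was 23346.1, 28782.5 and 18525.5 in LH transgenic pools, against 12162.2, 21454.0 and 4654.2 in wild type pools. Wild type pool 2 lay above LH transgenic pool 3, so the groups overlapped. The wild type pools differed 4.61-fold among themselves and the LH transgenic pools 1.55-fold. The means were 23551 ± 5132 in LH transgenic glands and 12757 ± 8416 in wild type glands (SD, n = 3 each). The log2 difference was 1.11 (SE 0.44, 95% interval 0.12 to 2.10, limma adjusted p = 0.107), which did not pass the threshold. Its size was near that of Xdh, with a wider error. Leaving out wild type pool 2 gave 1.61 with an adjusted p of 0.0155, and leaving out wild type pool 3 gave 0.52 with an adjusted p of 0.235.

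Mfge8 and Muc1 encode proteins of the globule's surface. Mfge8 encodes lactadherin, a secreted protein that binds phosphatidylserine and, in mouse, helps phagocytes take up dying cells in the involuting gland. Its signal was 86567.4, 97937.7 and 62290.3 in LH transgenic pools, against 55129.5, 60252.3 and 46823.8 in wild type pools. The groups did not overlap, but the lowest LH transgenic pool was only 1.03 times the highest wild type pool. The means were 82265 ± 18209 in LH transgenic glands and 54069 ± 6777 in wild type glands (SD, n = 3 each). Mfge8 rose by 0.59 on the log2 scale as deposited (SE 0.17, 95% interval 0.20 to 0.97, limma adjusted p = 0.0372), but its difference was -0.10 on the bacterial control scale. This call was the least stable of the 4 under the alternatives tried. Leaving out LH transgenic pool 1 (0.54, adjusted p = 0.119) or LH transgenic pool 2 (0.45, adjusted p = 0.112) ended it, as did leaving out wild type pool 1 (0.60, adjusted p = 0.0788) or wild type pool 3 (0.49, adjusted p = 0.134). It was kept without LH transgenic pool 3 (0.77, adjusted p = 0.00843) and without wild type pool 2 (0.67, adjusted p = 0.0421).

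Muc1 encodes mucin 1, a heavily glycosylated transmembrane protein of the apical surface of luminal cells that is carried onto the globule. Its signal was 13954.5, 12746.0 and 6356.5 in LH transgenic pools, against 7592.6, 6762.4 and 6794.4 in wild type pools. LH transgenic pools 1 and 2 lay above all wild type pools, and LH transgenic pool 3 lay below all of them. The wild type pools agreed within 1.12-fold, whereas the LH transgenic pools differed 2.20-fold. The means were 11019 ± 4083 in LH transgenic glands and 7050 ± 470.4 in wild type glands (SD, n = 3 each). The log2 difference was 0.56 (SE 0.26, 95% interval -0.01 to 1.14, limma adjusted p = 0.153), or -0.12 on the bacterial control scale, and was not called. Without LH transgenic pool 3 it was 0.91 with an adjusted p of 0.00172, so 1 pool decided this call.

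Fabp3 encodes the heart-type fatty acid binding protein, a cytosolic carrier of long-chain fatty acids in heart, muscle and the lactating mammary gland, where it was also named mammary-derived growth inhibitor. Its signal was 37299.1, 42062.3 and 23168.4 in LH transgenic pools, against 4326.8, 8492.4 and 1673.0 in wild type pools. All LH transgenic pools lay above all wild type pools, and the lowest of them was 2.73 times the highest wild type pool. The means were 34177 ± 9826 in LH transgenic glands and 4831 ± 3438 in wild type glands (SD, n = 3 each). Fabp3 rose by 3.04 on the log2 scale (SE 0.47, 95% interval 1.97 to 4.10, limma adjusted p = 0.00253), an 8.21-fold change that ranked 3 among the increases of all 7453 probe sets. The wild type pools differed 5.08-fold among themselves. The change was 11.95-fold when wild type pool 2 was left out and 5.40-fold when wild type pool 3 was, and the call held without each pool in turn.

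The arrays had nearly the same trimmed mean as deposited, so a shift of most transcripts in one direction would not show. When each array was instead divided by the mean level of its 9 bacterial control probe sets, which lay at 5219 to 7147 in LH transgenic arrays and 3359 to 4433 in wild type arrays, the median difference of all probe sets moved to -0.62. Centring on the luminal epithelial markers moved it to -0.44. Whether either scale measures such a shift of most transcripts was not tested. Of all 7453 probe sets, 3891 were called lower and 134 higher on the bacterial control scale. On the luminal scale 3079 were called lower and 195 higher. The SE of the 6 genes was 0.18 to 0.25 on the bacterial control scale, against 0.13 to 0.47 as deposited. Fabp3 had a limma adjusted p of 1.1e-20 there. Calls on the bacterial control scale thus rest on a spread shared between probe sets, and a gene's own spread between pools hardly enters them. Counts called in the gene lists described further on moved with the median and are given on both scales, to be read beside these shares. On the bacterial control scale the difference was 2.36 for Fabp3, 0.45 for Xdh, 0.42 for Btn1a1, 0.25 for Plin2, -0.10 for Mfge8 and -0.12 for Muc1, and Fabp3 alone of the 6 was called. Relative to the median of all probe sets on that scale, Fabp3 stood at 2.98, Xdh at 1.07, Btn1a1 at 1.05, Plin2 at 0.87, Mfge8 at 0.52 and Muc1 at 0.50. On the luminal scale Fabp3 (2.57), Xdh (0.66) and Plin2 (0.47) were called, with Btn1a1 at 0.65, Mfge8 at 0.12 and Muc1 at 0.10. Under quantile normalization Mfge8 had a difference of 0.08 and was not called, while Fabp3 (2.96), Xdh (1.12) and Plin2 (0.63) were.

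**Figure D2:**
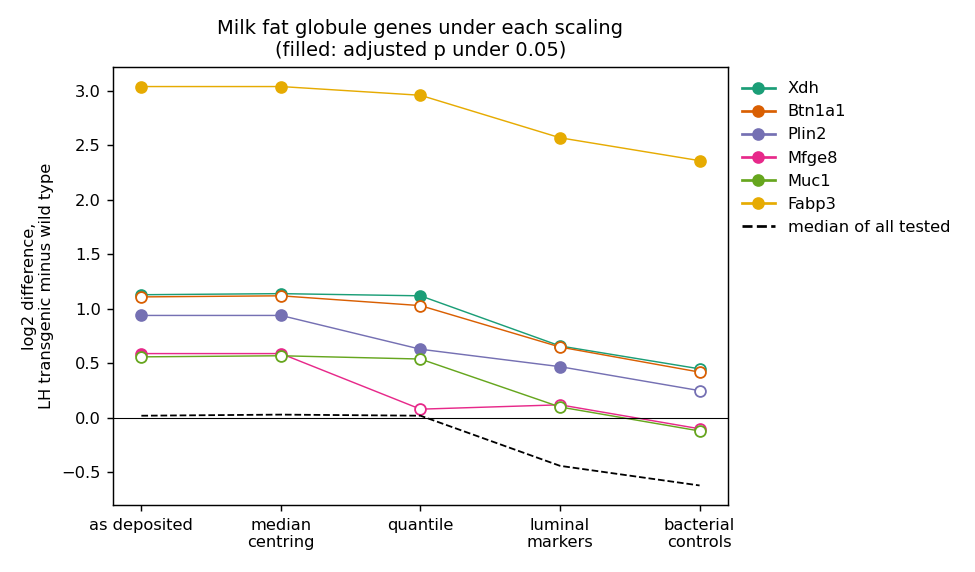
Log2 difference (LH transgenic minus wild type) of each gene under 5 ways of scaling the arrays, with filled points for limma adjusted p under 0.05, open points for values not called, and a dashed line for the median of all 7453 probe sets. The 6 genes keep their order against the dashed line except under quantile normalization, and Mfge8 and Muc1 lie below 0 on the bacterial control scale, where the median lies at -0.62.

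LH transgenic pool 3 was the lowest of its group for 6 of the 6 genes, which was so for 34.5% of all probe sets, and wild type pool 3 was the lowest of its group for 4 of 6, which was so for 35.0%. For Plin2 the LH transgenic pools differed only 1.03-fold. LH transgenic pool 3 was also lowest for 10 of 12 luminal markers, 9 of 11 macrophage markers and 9 of 10 genes of fatty acid uptake and activation. It was lowest for 5 of 10 milk proteins and 0 of 10 skeletal muscle markers. Pool numbers pair nothing across groups, so each group is read alone. The mean centred log2 level of the 6 genes was 0.776, 0.851 and 0.215 in LH transgenic pools, against -0.53, -0.165 and -1.146 in wild type pools. The milk proteins had 0.779, 0.965 and 0.362 in LH transgenic pools, against -0.651, -0.141 and -1.313 in wild type pools. Within each group both lists put the pools in the same order. The luminal epithelial markers, measured on the same arrays, were 0.316, 0.318 and 0.064 in LH transgenic pools, against -0.206, -0.29 and -0.202 in wild type pools, and wild type pool 3 was not the lowest.

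**Figure D3:**
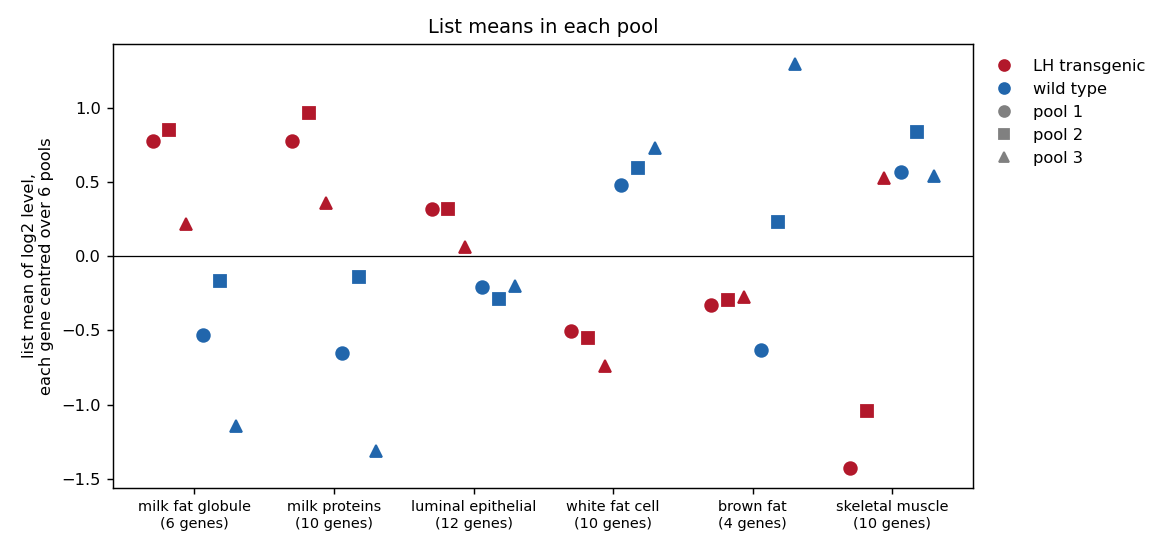
Mean log2 level of each gene list in each pool, every gene centred on its mean over the 6 pools, with red for LH transgenic, blue for wild type and marker shapes for pools 1 to 3. Within each group the milk fat globule genes and the milk proteins put the pools in the same order, and in skeletal muscle markers LH transgenic pool 3 lies at 0.525, beside the wild type pools; the axis is on the scale as deposited, on which Mfge8 and Muc1 are above 0.

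Among relatives of Fabp3 in the fatty acid binding protein family, Crabp2 was called higher and Fabp5 lower on the scale as deposited, and neither call held under all alternatives. Of 14 relatives listed, 10 were on the array, 6 of these were too dim to test (Fabp1, Fabp2, Fabp6, Fabp7, Fabp9 and Rbp2), and of the 4 tested 1 was called higher and 1 lower, with a median of -0.34. Fabp5, the epidermal-type carrier, had 1347.3, 1470.7 and 977.3 in LH transgenic pools, against 2789.3, 1923.9 and 1928.8 in wild type pools. It fell by 0.77 (SE 0.20, limma adjusted p = 0.0228), a call lost without LH transgenic pool 1 (adjusted p = 0.0514), LH transgenic pool 3 (0.0501) or wild type pool 1 (0.0841). Fabp4, the carrier of fat cells, had 2440.2, 1902.0 and 1681.4 in LH transgenic pools, against 2479.9, 2648.2 and 2404.0 in wild type pools. Its groups overlapped and its difference of -0.33 was not called (limma adjusted p = 0.172). Crabp2, which binds retinoic acid, had 2932.7, 3222.3 and 5369.7 in LH transgenic pools, against 1723.5, 2332.8 and 1198.5 in wild type pools. It rose by 1.10 (SE 0.27, limma adjusted p = 0.0187), and the call was lost without wild type pool 1 (adjusted p = 0.0531) or wild type pool 3 (0.069) and on the bacterial control and luminal scales. On each of those scales 0 of the 4 were called higher and 3 lower, Fabp4 among them. Crabp1, the other retinoic acid carrier, was not called (-0.35, limma adjusted p = 0.376).

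Several lipid droplet genes of fat cells were lower in LH transgenic glands, whereas Plin2 was higher, and Plin2, Plin4, Cidec, Lipe and Mgll kept their signs under every scaling tried. Of 11 tested genes of droplet coats and lipolysis, 6 were called lower and 2 higher, with a median of -0.66, and on the bacterial control and luminal scales 6 were called lower and 0 higher. Plin4, a perilipin of fat cells, had 4646.0, 5157.1 and 4080.3 in LH transgenic pools, against 12539.6, 13830.0 and 16686.6 in wild type pools, a fall of 1.61 on the log2 scale (SE 0.15, limma adjusted p = 0.000268). Cidec, which fuses droplets in white fat cells, had 4018.0, 3389.6 and 2511.7 in LH transgenic pools, against 9924.5, 9425.1 and 14224.2 in wild type pools. It fell by 1.74 (SE 0.21, limma adjusted p = 0.000726). The lipases Lipe, which fell by 1.41, and Mgll, which fell by 1.07, were also called, with groups that did not overlap. The genes called higher were Hsd17b11, a droplet-bound dehydrogenase (0.74, limma adjusted p = 0.00274), and Rab18, a droplet-bound small GTPase, and neither was called on those 2 scales. Rab18 had 0.54 (limma adjusted p = 0.0142), a call lost when LH transgenic pool 1, wild type pool 1 or wild type pool 3 was left out (adjusted p = 0.0517 to 0.0593), and its difference was below 0 on the bacterial control scale. Cidea, which in mouse is found in brown fat and in the lactating gland, where it takes part in milk lipid secretion, had 7322.6, 7015.3 and 2827.8 in LH transgenic pools, against 2682.2, 2668.6 and 4923.3 in wild type pools. LH transgenic pools 1 and 2 were the highest of the 6, pool 3 lay among the wild type pools, and the difference of 0.67 was not called (limma adjusted p = 0.218). Without LH transgenic pool 3 it was 1.11 with an adjusted p of 0.0162.

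**Figure D4:**
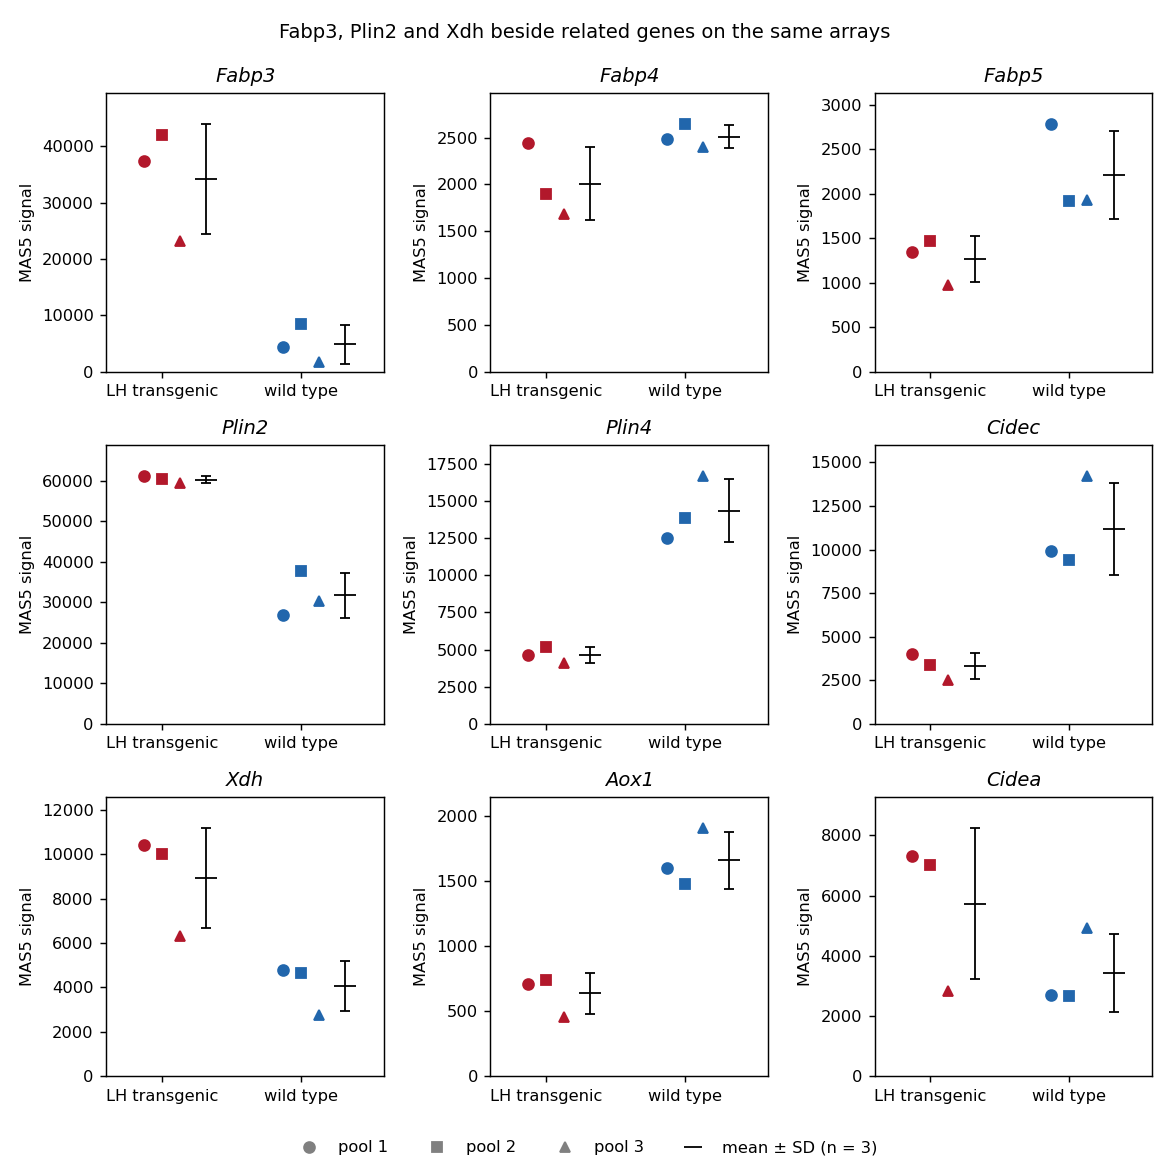
MAS5 signal (linear axes from 0) of Fabp3, Plin2 and Xdh and of related genes in the 3 LH transgenic pools (red) and the 3 wild type pools (blue), with mean and SD in black. Fabp5, Plin4, Cidec and Aox1 lie lower in all LH transgenic pools, and Cidea follows neither pattern, with LH transgenic pool 3 at 2827.8; on the bacterial control scale the Cidea difference was below 0.

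Among enzymes related to Xdh by reaction or cofactor, 7 were tested, 1 was called higher and 1 lower, with a median of 0.36. Aox1, aldehyde oxidase, is the relative of xanthine oxidoreductase that shares its molybdenum cofactor. It had 709.7, 741.2 and 457.6 in LH transgenic pools, against 1600.4, 1482.5 and 1907.4 in wild type pools, and fell by 1.30 (SE 0.19, limma adjusted p = 0.00207). Ada, adenosine deaminase of the same purine pathway, had 2506.1, 2564.5 and 1935.6 in LH transgenic pools, against 1141.8, 1377.5 and 1086.3 in wild type pools, and rose by 0.91 (SE 0.16, limma adjusted p = 0.00437). Xdh and Ada were higher and Aox1 lower in all LH transgenic pools on the scale as deposited, and none of the 3 turned sign under another scaling. The Ada call was lost on the bacterial control and luminal scales, and the Xdh call on the bacterial control scale. On each of those scales 0 of the 7 enzymes were called higher and 3 lower.

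Other proteins of the globule membrane split by gene. Of 14 tested, 4 were called higher and 1 lower as deposited, with a median of -0.10, and 4 higher and 8 lower on both the bacterial control and the luminal scale. Glycam1, a secreted mucin-like milk protein, had 87273.4, 98213.3 and 68822.3 in LH transgenic pools, against 16055.7, 34337.2 and 11848.1 in wild type pools, and rose by 2.16 (SE 0.33, limma adjusted p = 0.00214). Folr1, a folate receptor, rose by 1.71 (adjusted p = 0.0104), Abcg2, the transporter that carries riboflavin and drugs into milk, by 1.55 (adjusted p = 0.00252), and Slc34a2, a phosphate transporter, by 1.29 (adjusted p = 0.0129), all from limma. The 1 called lower was Anxa2, a membrane-binding annexin, with 11067.7, 10419.5 and 11315.7 in LH transgenic pools, against 21652.7, 24077.0 and 28148.0 in wild type pools. It fell by 1.16 (SE 0.13, limma adjusted p = 0.000508). Cd36, a fatty acid translocase of the globule membrane and of fat cells, had 2318.6, 1879.6 and 1766.5 in LH transgenic pools, against 2866.1, 2432.0 and 3161.3 in wild type pools. Its groups did not overlap, but the difference of -0.49 was not called (limma adjusted p = 0.052), and it was called without LH transgenic pool 1 (-0.60, adjusted p = 0.0433). Leaving out that pool gave 3 genes called lower in this list.

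Most genes that supply the droplet with fat were not called as deposited. In fatty acid uptake and activation, 10 genes were tested, 1 was called higher and 1 lower, with a median of -0.04, a share near the 21.3% of all probe sets. On both the bacterial control and the luminal scale 1 was called higher and 5 lower. Over all 7453 probe sets, 3891 were called lower on the bacterial control scale and 3079 on the luminal scale. Acsl4, an acyl-CoA synthetase that favours arachidonic acid, had 4504.7, 4493.2 and 4190.2 in LH transgenic pools, against 1540.3, 1647.6 and 1285.9 in wild type pools, and rose by 1.52 (SE 0.14, limma adjusted p = 0.000264). Lpl, lipoprotein lipase, had 20805.1, 21784.0 and 20829.9 in LH transgenic pools, against 30979.4, 34611.2 and 31521.6 in wild type pools, and fell by 0.61 (SE 0.10, limma adjusted p = 0.00383). A second, dimmer Lpl probe set went the other way, with means of 5970 in LH transgenic glands and 4884 in wild type glands, and was not called (0.29, limma adjusted p = 0.192), so the direction of Lpl is uncertain. In triacylglycerol synthesis 8 genes were tested, 0 were called higher and 3 lower, with a median of -0.44, and 6 were called lower on both other scales. The 3 called as deposited were Dgat1, which makes the last acylation and fell by 1.05 (limma adjusted p = 0.000719), Gpam, which makes the first and fell by 0.92 (limma adjusted p = 0.00192), and Lpin1, a phosphatidate phosphatase that fell by 0.61 (limma adjusted p = 0.0102). Groups did not overlap for any of these 3 genes. The count called lower in uptake and activation was 2 without LH transgenic pool 1, LH transgenic pool 2 or wild type pool 1.

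**Figure D5:**
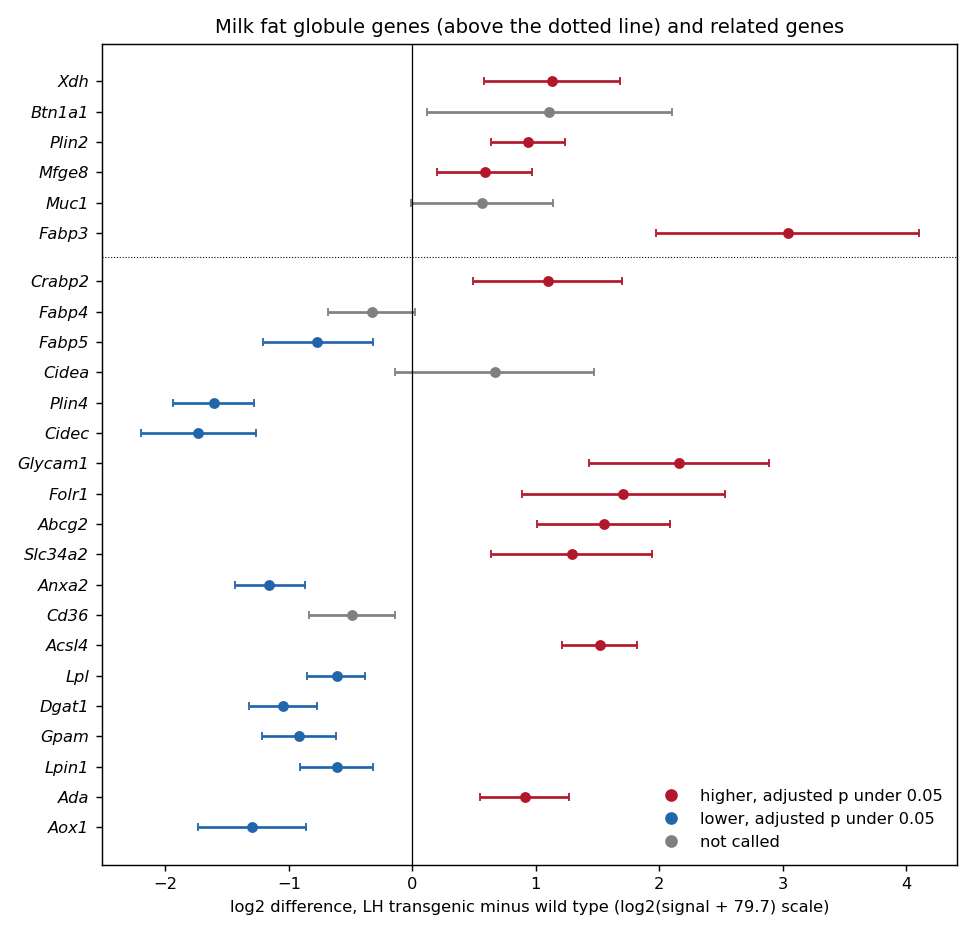
Log2 difference (LH transgenic minus wild type, log2(signal + 79.7) scale) with its 95% interval for the 6 genes above the dotted line and 19 related genes below it, in red where called higher, blue where called lower and grey where not called by limma at an adjusted p under 0.05. Fabp3 lies farthest to the right at 3.04 and Cidec farthest to the left at -1.74; on the bacterial control scale Mfge8, Muc1 and Cidea were below 0.

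Milk proteins were called higher in 8 of 10 tested genes, with a median of 1.20, on the scale as deposited, and in 5 on both the bacterial control and the luminal scale. Csn1s1, one of the 8, turned below 0 on the bacterial control scale. The largest differences were those of Csn1s2b (2.85), Glycam1 (2.16), Cel, the bile salt lipase of milk (1.91), and Wap, whey acidic protein (1.62). The median of the 6 milk fat globule genes, 1.02, lay within the range of the milk proteins, and Fabp3 exceeded each of them on this scale. Among 13 regulators of alveolar development and lipid synthesis, 6 were called higher and 2 lower, with a median of 0.54, and Stat5a, Jak2, Cish and Esrra, all among the 6, turned below 0 on the bacterial control scale (Stat5a on the luminal scale too). On the bacterial control scale 1 was called higher, Elf5, and 4 lower, and on the luminal scale 0 higher and 2 lower. The Stat5a call (0.41), from its brightest probe set, was lost without any 1 of the 6 pools (0.34, adjusted p = 0.0545, without LH transgenic pool 3). A second, dimmer Stat5a probe set was called higher as deposited (0.77, limma adjusted p = 0.0111), with groups that did not overlap. The effect of leaving out pools was not examined for that probe set. The Jak2 call (0.63) was lost without any pool but LH transgenic pool 2 (0.44, adjusted p = 0.0692, without LH transgenic pool 3), and the Cish call (0.54) without wild type pool 1 or 3. Elf5, the transcription factor of alveolar cells, rose by 1.21 (limma adjusted p = 0.0111), and Id2, an inhibitor of DNA binding needed for alveoli in mice, rose by 1.07 (limma adjusted p = 0.0167), a call lost without wild type pool 3 (adjusted p = 0.0646) and on both other scales. Esrra, a nuclear receptor of oxidative metabolism, rose by 0.66 (limma adjusted p = 0.0235) as deposited and was not called when LH transgenic pool 1 or 2 or wild type pool 1 or 3 was left out. Pparg, a nuclear receptor of fat cells and a known regulator of Plin2 and Fabp4, had 810.1, 877.0 and 1206.9 in LH transgenic pools, against 2998.8, 2784.9 and 2830.0 in wild type pools, and fell by 1.52 (limma adjusted p = 0.000497). Regulators called higher numbered 1 when wild type pool 3 was left out, 2 when wild type pool 1 was and 3 when LH transgenic pool 1 was. Those called lower numbered 1 when LH transgenic pool 3, wild type pool 1 or wild type pool 3 was left out.

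Markers of other cell types moved with the groups, and their part in these differences was not tested beyond the values given here. No marker was at 0 on any array, and sums are over all markers of a list on the array. White fat cell markers were called lower in 8 of 10 tested genes, with a median of -1.38, and summed to 100733 to 106466 in LH transgenic pools and 164488 to 191497 in wild type pools. On the bacterial control scale 10 were called lower and on the luminal scale 9. The largest falls were those of Retn (-2.02), Slc2a4 (-1.81), Cidec (-1.74) and Pparg (-1.52). Luminal epithelial markers were called higher in 5 of 12 and lower in 1, with a median of 0.40, and summed to 105109 to 128078 in LH transgenic pools and 78636 to 83004 in wild type pools. On the bacterial control scale 1, Ehf, was called higher and 3 lower, and on the luminal scale 2, Ehf and Cd24a, higher and 3 lower. The luminal scale centres each array on the mean of these same markers, so it cannot show a shift of this list as a whole. As deposited Ehf rose by 1.51, Cd24a by 1.03 and Cldn3 by 0.79, Krt7 fell by 0.69 (not called without wild type pool 3), and Krt19 and Cldn7, also called higher, turned below 0 on the bacterial control scale. The Krt19 call, from its brightest probe set, was lost without any pool but LH transgenic pool 3. A second, dimmer Krt19 probe set was called higher as deposited (1.05, limma adjusted p = 0.00236) and was not examined with pools left out. Macrophages also make Mfge8 and Plin2, and macrophage markers were called higher in 5 of 11 and lower in 0, with a median of 0.60, and summed to 81669 to 97679 in LH transgenic pools and 47359 to 63103 in wild type pools. That count was the same under quantile normalization and median centring and was lost on the other 2 scales. There 0 were higher and 2 lower on the bacterial control scale, and 1, Ctss, was higher and 0 lower on the luminal scale. Capillary endothelial cells also make Xdh, and endothelial markers were called lower in 6 of 9 and higher in 0, with a median of -0.85, and summed to 28502 to 28720 in LH transgenic pools and 44577 to 51083 in wild type pools. On each of the other 2 scales 8 were called lower. Basal and myoepithelial markers were called higher in 1 of 7, Acta2, which turned below 0 on the bacterial control scale, and summed to 40719 to 43771 in LH transgenic pools and 32381 to 38407 in wild type pools. On the bacterial control scale 4 were called lower and on the luminal scale 3, with 0 higher. Krt17 counted as not called by its brightest probe set (-0.33). Its other probe sets were called in opposite directions, at 0.93 (limma adjusted p = 0.00892) and -1.37 (limma adjusted p = 0.02), so the direction of Krt17 is uncertain. Without LH transgenic pool 3 the counts called higher were 9 for milk proteins, 6 for luminal, 6 for macrophage and 2 for basal markers, and 5 endothelial markers were called lower.

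Fabp3 is also made in muscle and brown fat, so their markers were set beside it. Skeletal muscle markers were called lower in 4 of 10 and higher in 0, with a median of -1.11, and summed to 18539 to 74664 in LH transgenic pools and 83470 to 98295 in wild type pools. The 4 were Myh4 (-2.13), Atp2a1 (-2.10), Tnnt3 (-1.92) and Pvalb (-1.43). The Myh4 call was lost without any pool but LH transgenic pool 3, and the Tnnt3 call without LH transgenic pool 1. Second, dimmer probe sets of Atp2a1 (-1.84, limma adjusted p = 0.066) and Pvalb (-0.64, limma adjusted p = 0.417) overlapped between groups and were not called. The count called lower was 8 of 9 tested without LH transgenic pool 3, 2 of 10 without LH transgenic pool 1, 10 of 10 on the bacterial control scale and 8 of 10 on the luminal scale. Brown fat markers were called lower in 1 of 4, Cox8b (-0.95, limma adjusted p = 0.0255, lost when LH transgenic pool 1 or 3 or wild type pool 2 or 3 was left out), and summed to 5819 to 9682 in LH transgenic pools and 5378 to 15056 in wild type pools. Ucp1, their defining gene, had 145.3, 215.8 and 961.5 in LH transgenic pools, against 167.1, 1248.2 and 3953.8 in wild type pools. Wild type pool 3 had the highest Ucp1 and the lowest Fabp3 of the 6 pools. Wild type pool 2, next highest in Ucp1, had the highest Fabp3 of the wild type pools (8492.4). The part of brown fat in the Fabp3 signal was not tested. Of 10 slow and cardiac muscle markers on the array, 8 were below the filter, and the 2 tested, Nppa (0.39) and Tnni1 (0.26), were not called. No marker of muscle or brown fat was called higher as deposited, and without LH transgenic pool 3 Cidea alone was. With the skeletal muscle level of each array as a covariate, Fabp3 had a difference of 2.72 (SE 0.73) with a limma adjusted p of 0.0534, which no longer passed. Its SE without a covariate was 0.47. The covariate leaves 3 residual degrees of freedom and partly repeats the groups, since LH transgenic pools 1 and 2 lay below all wild type pools in it. Plin2 alone of the 6 genes kept its call in that fit. The numbers called higher in it were 3 of 10 milk proteins, 3 of 13 regulators, 1 of 14 other membrane proteins, 2 of 12 luminal markers and 1 of 11 macrophage markers. With the white fat cell level as a covariate Fabp3 was at 1.58 (SE 2.89, adjusted p = 0.916), in a fit whose covariate nearly repeats the groups.

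The genes with the most similar profiles over the 6 arrays were found by the mean absolute difference of centred log2 signals among 5725 genes with tested probe sets. For Fabp3 they were Csn1s2b, a casein (0.30), Glycam1 (0.44) and Saa3, an acute-phase serum amyloid (0.50). For Btn1a1 they were Lalba, alpha-lactalbumin of lactose synthesis (0.18), Slc34a2 (0.21) and P4hb, protein disulfide isomerase (0.23). Lalba had 52487.6, 56487.1 and 30536.5 in LH transgenic pools, against 20983.1, 32406.2 and 6962.4 in wild type pools, and like Btn1a1 it overlapped between groups and was not called (1.41, limma adjusted p = 0.0607). For Xdh they were Igfals (0.09), the receptor kinase Tyro3 (0.10) and the tetraspanin Cd82 (0.10). For Plin2 they were Ammecr1l (0.06), Lypla2 (0.06) and the macrophage cathepsin Ctss (0.07), for Mfge8 Os9 (0.05), Ttk (0.05) and Rhog (0.06), and for Muc1 Edem2 (0.10), Mydgf (0.10) and Sec61b (0.12). Mfge8 and Muc1 were the closest pair among the 6 genes (0.18), and Fabp3 lay 0.95 to 1.24 from each of the other 5.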

How the data were processed

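Total RNA of thoracic mammary glands was measured on 6 Affymetrix arrays, 3 LH transgenic and 3 wild type, each hybridised with biotin-labelled cRNA of a pool of 3 mice, per the labels. For each array the authors deposited a linear intensity of every probe set, which MAS5 computed according to the submitters' processing notes. The sources used here do not give its version, its detection calls or a genome build. The table held 12488 probe sets, 66 of them controls, which were not tested. Annotation of the platform named a single gene for 10833 probe sets and several genes for 396, and symbols were checked in RefSeq (10817 found, 0 changed).

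Values were transformed to log2(signal + 79.7), 79.7 being the 20th percentile of all values. Fold changes of dim genes are therefore understated. Probe sets with a mean of at least 336.0, the 40th percentile, were fitted with limma (lmFit, eBayes with a trend), two-sided, without covariates, and adjusted by Benjamini-Hochberg over 7453 probe sets with a threshold of 0.05. The fit was tested on simulated data. The number of arrays limits the precision. A gene with several probe sets is given by the brightest, and other probe sets are described only where the text names them.

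The genes, lists and tests were chosen with earlier results of these data known. All probe sets of the 6 genes are named. Of every other list up to 4 called genes are named by size, or up to 2 by p if none was called, with Fabp and Plin relatives, Cd36, Cidea and Cidec always named, and the 3 genes of the most similar profile for each of the 6. Hsd17b11, Rab18, Anxa2, Krt5, Krt8, Krt14, Krt17, Krt19, Cldn7, Stat5a, Jak2, Cish, Csn1s1 and Ucp1 were named after their values were seen. The alternatives were quantile normalization, median centring, scaling to 9 bacterial controls or to luminal markers, a floor of 16.8 or a pseudocount of 318.8, no filter or one of 1190.9, eBayes without a trend or robust, arrayWeights, 2 covariates, and leaving out each pool. Models were fitted in R 4.3.3 with limma 3.58.1 (statmod 1.5.0 for the robust option), and tables and plots were made in Python 3.11.15 with numpy 2.4.6, pandas 2.3.3 and matplotlib 3.10.9.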

Additional observations from a re-analysis of the deposited data

How the results depend on the processing

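Of 19 alternatives per gene, the side of the threshold and the direction were kept in 17 for Fabp3, 17 for Plin2, 16 for Xdh, 17 for Btn1a1, 15 for Muc1 and 8 for Mfge8. Log2 differences turned sign on the bacterial control scale for Muc1 (-0.12) and Mfge8 (-0.10), with the skeletal muscle covariate for Muc1 (-0.20) and with the white fat covariate for Btn1a1 (-1.24). Of the 6 genes, 4 were called as reported, 1 on the bacterial control scale, 1 with the skeletal muscle covariate, 0 with the white fat covariate and 3 to 5 when a pool was left out. Of all 7453 probe sets, 1586 were called as reported, 4025 on the bacterial control scale (3.33% of them higher, as reported 49.2%), 3274 on the luminal scale (5.96% higher), 742 with the skeletal muscle covariate and 0 with the white fat covariate. When a pool was left out they were 948 (without wild type pool 3) to 1633 (without LH transgenic pool 3). Calls on the bacterial control scale rest on a spread shared between probe sets, as described above. Each covariate leaves 3 residual degrees of freedom, and the white fat covariate nearly repeats the groups. At an unadjusted p under 0.05, limma found 540 probe sets with it, 1 of them among the 6 genes. No paired analysis was possible because the replicate numbers are names given in accession order and the labels pair no pools. All 6 genes had mean signals above the filter.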
